A study of Mus musculus with 6 samples.

Results

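The transcripts of the mouse mitochondrial genome were followed through a liver RNA-seq table of 25102 genes. All 37 genes whose symbol begins with mt- were taken, which is the whole gene set of the organelle: 13 protein-coding genes, 2 ribosomal RNAs and 22 transfer RNAs. They were measured in 6 liver libraries of male C57BL/6J mice, 3 labelled control and 3 labelled DEN+CCl4. Mice of the DEN+CCl4 group, entered at 2 weeks of age, had 1 intraperitoneal dose of the liver carcinogen diethylnitrosamine (DEN, 1 mg/kg), and from about 6 weeks afterwards the hepatotoxin carbon tetrachloride (CCl4, 0.2 mL/kg) 2 times a week for at most 14 weeks. Both groups shared strain, sex and starting age. The labels do not say what the controls were injected with, the age at collection or whether tumour or surrounding liver was taken. They do not say either that each library is a different mouse, so p-values measure the spread between these libraries, which may be technical.

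The mitochondrial genome is a compact circle, present in many copies per cell, that is transcribed from both strands into long precursors. The tRNAs lie between most of the mRNAs and rRNAs and mark the places where the precursors are cut. Its mRNAs encode core subunits of the respiratory complexes I, III, IV and V, its rRNAs form the mitochondrial ribosome, and hepatocytes, which are rich in mitochondria, carry much of such RNA. Most mitochondrial mRNAs end in a short poly(A) tail, the rRNAs in a very short one and mature tRNAs in none. According to the labels the RNA was selected with oligo(dT) beads before library preparation, so the 3 classes are not captured alike. The deposited unit is FPKM, the fragments of a gene per kilobase of its transcript, scaled to the mapped fragments of the library. It is a level per length. For the tRNAs, of 59 to 75 bases, and for mt-Atp8, of 204, the FPKM depends on how the length was corrected, which is not stated.

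Several mitochondrial genes have a nearly identical copy in the nuclear genome, and this decides which values belong to the organelle alone. In GRCm38 with the GENCODE M21 annotation, 7 unprocessed pseudogenes lay on the minus strand of chr1:24611535-24616197, a stretch of 4663 bases that ran parallel to chrM:6381-11042, of 4662 bases. By position the stretch covered 11 whole mitochondrial genes, mt-Ts1, mt-Td, mt-Co2, mt-Tk, mt-Atp8, mt-Atp6, mt-Co3, mt-Tg, mt-Nd3, mt-Tr and mt-Nd4l, although the annotation names no copy of the 5 tRNAs or of mt-Atp8. Over their compared lengths Gm28661 (copy of mt-Co2), Gm10925 (mt-Atp6), Gm28437 (mt-Co3), Gm10222 (mt-Nd4l) and Gm28439 (part of mt-Nd4) had 0 differing bases, Gm28438 (mt-Nd3) had 1 and Gm29216 (part of mt-Co1) had 6. A fragment inside such a gene can be assigned to either place. Of all 31-base words of each mitochondrial transcript, 100% were also found in nuclear transcripts for mt-Co2, 99.9% for mt-Co3, 99.5% for mt-Atp6, 98.9% for mt-Nd4l and 98.1% for mt-Nd3. The share was 63.9% for mt-Co1 and 62.8% for mt-Nd4. It was at most 16.8% for the other 6 mRNAs (mt-Nd5 16.8%, mt-Nd2 13.5%, mt-Atp8 7.47%, mt-Nd6 7.36%, mt-Cytb 6.55%, mt-Nd1 0%), 2.71% for mt-Rnr2 and 0% for mt-Rnr1. Levels of mt-Co2, mt-Co3, mt-Atp6, mt-Nd4l and mt-Nd3 are therefore uncertain by what was assigned to the copy. Those of mt-Co1 and mt-Nd4, with partial copies, are uncertain in part. For mt-Atp8 and the 5 tRNAs inside the stretch, which have no annotated copy, words of annotated transcripts cannot show whether fragments fit both places.

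The junction of mt-Atp8 and mt-Atp6 shows both sources of ambiguity, and these 2 genes had the largest fold changes among the mRNAs. The whole of mt-Atp8 (ENSMUSG00000064356, chrM:7766-7969, plus strand) and the first 90 bases of mt-Atp6 (ENSMUSG00000064357, chrM:7927-8016, plus strand) and of its copy Gm10925 (chr1:24614562-24614651, minus strand) are given 5′ to 3′ from the GENCODE M21 transcripts. Capitals mark the 43 bases that mt-Atp8 and mt-Atp6 have in common because the genes overlap (chrM:7927-7969).
mt-Atp8: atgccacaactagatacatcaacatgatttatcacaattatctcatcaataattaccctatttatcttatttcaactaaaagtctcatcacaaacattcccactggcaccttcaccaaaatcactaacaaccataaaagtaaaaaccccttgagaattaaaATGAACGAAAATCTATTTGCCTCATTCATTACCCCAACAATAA
mt-Atp6: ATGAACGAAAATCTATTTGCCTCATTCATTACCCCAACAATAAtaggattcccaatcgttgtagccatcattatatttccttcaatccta
Gm10925: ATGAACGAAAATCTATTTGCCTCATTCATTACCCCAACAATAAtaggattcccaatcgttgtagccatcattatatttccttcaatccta
The mt-Atp6 and Gm10925 stretches are letter for letter the same, and they stay so over all 678 bases compared. A fragment within the capitals fits all 3 genes. In all, 9 pairs of mitochondrial genes overlapped. The overlap was 7 bases for mt-Nd4l and mt-Nd4, and 14 bases for mt-Nd5 and mt-Nd6, which lie on opposite strands. Whether counting used strand is not given in the sources used here, so RNA of the 2 strands at one place cannot be told apart, which bears on mt-Nd6 and the 8 tRNAs of the minus strand.

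The library DEN+CCl4 3 stood apart from the other 5 across the whole table. Its FPKM summed to 1064778, against 653118 to 725277 in the others, and its median-ratio size factor was 0.356 against 1.16 to 1.37. Of the 8484 tested genes that were neither mitochondrial nor copies, 7045 (83.0%) were lowest in it and 126 (1.49%) were highest. The 8 hepatocyte markers summed to 46223 to 75884 FPKM in control and to 49639, 74510 and 16513 in DEN+CCl4 1 to 3, so liver markers were present in every library. The 5 erythroid markers summed to 236 to 639 FPKM in control and to 447, 2649 and 142 in DEN+CCl4 1 to 3. The 6 markers of stellate cells or myofibroblasts summed to 6.49 to 10.4 against 10.6 to 25.1. Of these, Col1a1 (0.63 to 0.99 against 2.06 to 7.25 FPKM) and Acta2 (1.08 to 1.58 against 2.87 to 10.9) were above every control in all 3 DEN+CCl4 libraries, and Lrat (0.40 to 0.58 against 0.15 to 0.35) was below. The 5 cholangiocyte markers summed to 9.20 to 16.4 against 14.5 to 34.0, of which Spp1 made up 8.20 to 14.9 and 12.9 to 27.4, while Epcam was at 0.17 to 0.22 and 0 to 0.11. The sums were 31.4 to 83.7 against 21.2 to 46.2 for macrophages, 10.03 to 18.5 against 6.03 to 20.6 for endothelial cells and 3.76 to 5.41 against 3.01 to 6.95 for lymphocytes. Of the 5 striated muscle markers, a tissue rich in mitochondrial RNA, 3 were in the table and summed to at most 0.09 FPKM. The part of the marker lists in the mitochondrial values was not tested.

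Mitochondrial genes took up 26.6%, 43.0% and 31.8% of the summed FPKM in control 1 to 3 and 36.9%, 40.6% and 64.2% in DEN+CCl4 1 to 3. The groups overlapped: DEN+CCl4 1 and 2 lay within the control range, and DEN+CCl4 3 above every other library. The mean was 33.8% ± 8.34 (SD, n = 3) in control and 47.3% ± 14.8 (SD, n = 3) in DEN+CCl4, a difference of 13.5 percentage points that was smaller than the SD of the DEN+CCl4 group. Without DEN+CCl4 3 the difference was 4.99 percentage points. In bulk tissue a smaller number of cells of a type and less RNA per cell cannot be told apart. Weighted by transcript length, which approximates the share of fragments, the mitochondrial share was 19.9%, 34.3% and 23.3% in control and 28.1%, 28.9% and 62.0% in DEN+CCl4.

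Nearly all of that share was mRNA. The 13 mRNAs made up 25.3%, 41.3% and 30.6% of the summed FPKM in control and 35.8%, 38.7% and 62.0% in DEN+CCl4. The 22 tRNAs made up 0.718%, 1.12% and 0.940% in control and 0.942%, 0.985% and 1.26% in DEN+CCl4, or 0.036% to 0.096% when weighted by length. The 2 rRNAs made up 0.608%, 0.561% and 0.299% against 0.234%, 0.912% and 0.932%, and unlike the mRNAs they had their lowest share in DEN+CCl4 1. The 7 nuclear copies added 11.5%, 19.1% and 14.6% in control and 15.3%, 16.05% and 20.8% in DEN+CCl4. Set against the mitochondrial mRNAs, the summed tRNAs came to 2.84%, 2.72% and 3.07% of the mRNA FPKM in control and 2.63%, 2.54% and 2.04% in DEN+CCl4. The sum was lower in all 3 DEN+CCl4 libraries than in any control, as were 5.63% of all tested genes scaled to the mRNA total. Its largest part was mt-Te, at 1.18%, 1.09% and 1.15% in control and 1.02%, 0.714% and 0.626% in DEN+CCl4. On that scale the log2 difference, DEN+CCl4 minus control, was positive for 11 of the 22 tRNAs and negative for 11. The rRNAs came to 2.40%, 1.36% and 0.977% of the mRNA FPKM against 0.655%, 2.35% and 1.502% and overlapped.

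**Figure D1:**
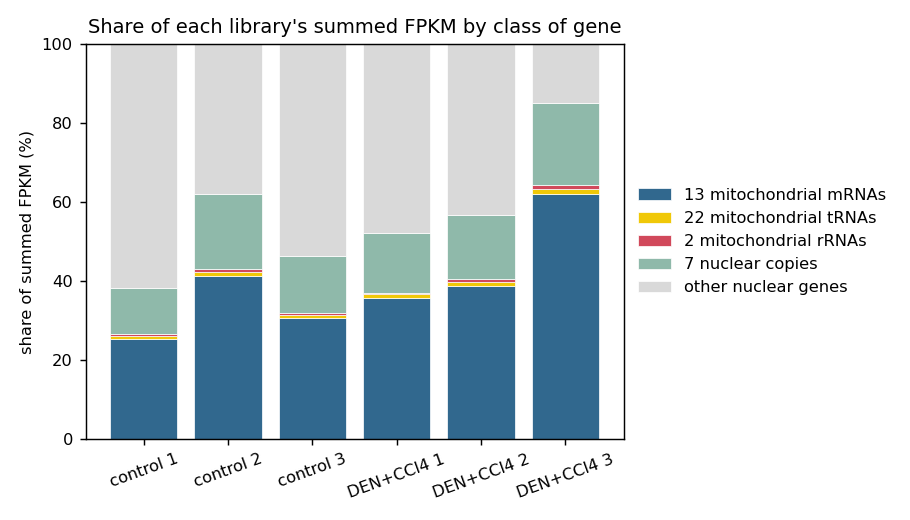
Share of each library's summed FPKM (%, bars from 0 to 100) taken by the mitochondrial mRNAs, tRNAs and rRNAs, the 7 nuclear copies and all other nuclear genes. The mRNA segment spans 25.3% to 41.3% in 5 libraries and 62.0% in DEN+CCl4 3, while tRNAs and rRNAs are thin bands throughout.

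No mitochondrial gene passed the threshold between the groups. The test was limma on log2(FPKM + 1) with Benjamini-Hochberg adjustment over the 8528 genes whose mean reached 1 FPKM, and all 37 mitochondrial genes were among them. At an adjusted p under 0.05, 0 of 37 were higher in DEN+CCl4, where 0.833% of all tested genes were, and 0 of 37 were lower, where 0.645% were. At an unadjusted p under 0.05, 1 was higher (mt-Tv) and 1 lower (mt-Tg), beside 216 and 432 of the 8528 tested genes. Fold changes here are differences of log2(FPKM + 1), DEN+CCl4 minus control. Their median was 0.58 over the mitochondrial genes, 32 of them positive and 5 negative, and -0.27 over all tested genes. The median was 0.56 for the mRNAs and 0.59 for the tRNAs.

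That median moved with scale and with 1 library. Without DEN+CCl4 3, the median was 0.23 for the mitochondrial genes, with 23 positive and 14 negative, and 0.12 for all tested genes, and 0% of all genes were called in either direction. With median-ratio scaling the medians were 1.04 and 0.01, and with scaling to the summed nuclear FPKM 1.06 and 0.04. When libraries were scaled to their summed mitochondrial mRNA, so that genes are compared within the mitochondrial pool, the medians were -0.07 and -0.62, with 17 mitochondrial genes positive and 20 negative, and 0 of 37 called in either direction (0.117% of all tested genes higher, 0.152% lower). The values below are FPKM as deposited unless another scale is named.

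**Figure D2:**
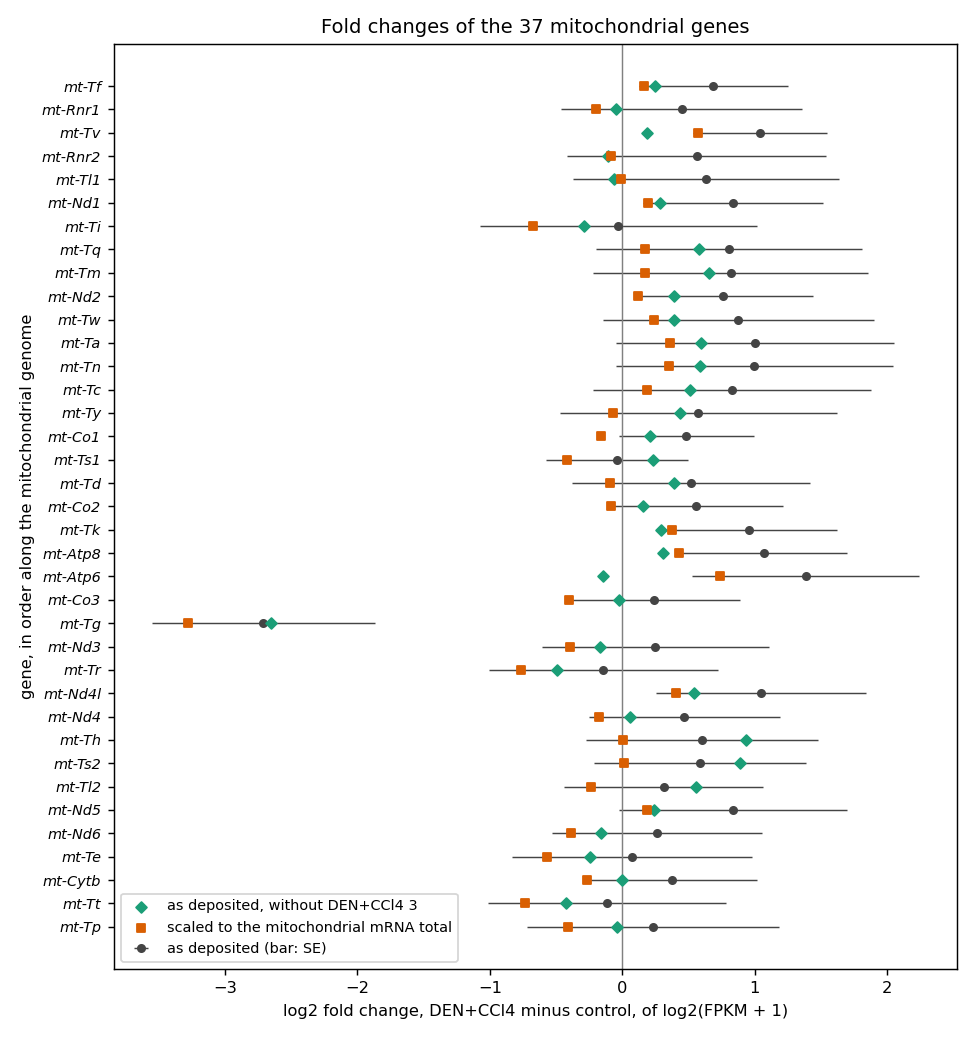
Difference of log2(FPKM + 1), DEN+CCl4 minus control, for the 37 genes in genome order: as deposited with its standard error (circles, n = 3 a group), without DEN+CCl4 3 (diamonds) and scaled to the mitochondrial mRNA total (squares). Most circles lie right of 0 with errors of similar size to their values, and mt-Tg alone lies near -2.71.

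Complex I, the NADH dehydrogenase, takes 7 of its subunits from this genome. The level of mt-Nd1, a membrane-arm subunit, was 11195, 18737 and 13129 FPKM in control and 12786, 22758 and 53889 in DEN+CCl4. DEN+CCl4 1 lay among the controls and DEN+CCl4 2 and 3 above all 3 (fold change 0.84, SE 0.68, adjusted p = 0.984 in limma). The subunit gene mt-Nd2 stood at 12542, 18636 and 12656 FPKM against 19789, 17942 and 40753, with DEN+CCl4 2 below the highest control (fold change 0.76).

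Levels of mt-Nd4, another membrane-arm subunit, were 9356, 13250 and 9908 FPKM in control and 10869, 11450 and 26105 in DEN+CCl4. The neighbouring mt-Nd4l, a small membrane subunit translated from the same mRNA, had 4571, 5942 and 4236 FPKM in control and 7216, 6928 and 20356 in DEN+CCl4. It was the only mRNA with all 3 DEN+CCl4 values above all 3 controls (fold change 1.05, SE 0.79, adjusted p = 0.963 in limma). Although the annotation gives them separate entries, the 2 genes share a mature transcript, and their ratio did not stay fixed. The ratio of mt-Nd4 to mt-Nd4l was 2.05, 2.23 and 2.34 in control and 1.51, 1.65 and 1.28 in DEN+CCl4, lower in every DEN+CCl4 library. Both genes have a copy on chromosome 1, whole for mt-Nd4l and partial for mt-Nd4, so the ratio also holds what was assigned to the copies.

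The lowest complex I levels were those of mt-Nd5 and mt-Nd3. For mt-Nd5, the distal membrane subunit, FPKM was 2504, 3903 and 2571 in control and 3400, 3515 and 11900 in DEN+CCl4 (fold change 0.83), and DEN+CCl4 1 and 2 lay inside the control range. For mt-Nd3 it was 2608, 5346 and 3474 against 2609, 4037 and 7748 (fold change 0.25). The gene mt-Nd6 is the single mRNA gene of the minus strand, and its mRNA is known to lack a poly(A) tail. It had 5010, 8366 and 5993 FPKM in control and 5769, 5502 and 13586 in DEN+CCl4 (fold change 0.26). As a share of mitochondrial mRNA FPKM it was 2.85%, 2.79% and 2.94% in control and 2.35%, 2.18% and 2.06% in DEN+CCl4, lower in all 3. Its ratio to mt-Nd5 was 2.00, 2.14 and 2.33 against 1.70, 1.57 and 1.14, and did not overlap either. The ratio of mt-Nd6 to mt-Cytb, the mRNA gene on its other side, did overlap. It was 0.275, 0.284 and 0.308 in control and 0.239, 0.279 and 0.283 in DEN+CCl4.

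Cytochrome b, encoded by mt-Cytb, is the mitochondrial subunit of complex III. It stood at 18205, 29471 and 19428 FPKM in control and 24142, 19695 and 48004 in DEN+CCl4, with DEN+CCl4 1 and 2 inside the control range (fold change 0.38, SE 0.64, adjusted p = 0.996 in limma).

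Complex IV, cytochrome c oxidase, has its 3 core subunits here. The catalytic subunit gene mt-Co1 had the highest level of the 13 mRNAs in all 6 libraries, at 57266, 104026 and 71733 FPKM in control and 89158, 85375 and 153252 in DEN+CCl4. It was 32.6%, 34.8% and 35.2% of mitochondrial mRNA FPKM in control and 36.3%, 33.8% and 23.2% in DEN+CCl4, so that DEN+CCl4 3 had its highest level and its lowest share. The copper-binding subunit gene mt-Co2 was at 16047, 23835 and 17506 FPKM against 19971, 22078 and 48674 (fold change 0.56).

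The gene of the third core subunit, mt-Co3, was at 15866, 33551 and 21572 FPKM in control and 21598, 22691 and 38723 in DEN+CCl4 (fold change 0.24, the smallest of the mRNAs). DEN+CCl4 1 and 2 lay close to control 3. Its share of mitochondrial mRNA FPKM was 9.02%, 11.2% and 10.6% in control and 8.78%, 8.97% and 5.86% in DEN+CCl4, below every control. The ratio of mt-Co1 to mt-Co3 was 3.61, 3.10 and 3.33 in control and 4.13, 3.76 and 3.96 in DEN+CCl4, without overlap.

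The ATP synthase, complex V, has 2 membrane subunits from this genome, translated from 1 mRNA with overlapping reading frames. The level of mt-Atp8 was 18347, 30054 and 18876 FPKM in control and 26001, 28090 and 132451 in DEN+CCl4. DEN+CCl4 1 and 2 were below control 2, and DEN+CCl4 3 was 4.41 times the highest other library (fold change 1.07, SE 0.62, adjusted p = 0.790 in limma). The proton-channel subunit gene mt-Atp6 was at 2403, 4207 and 2660 FPKM in control and 2575, 2850 and 65143 in DEN+CCl4. Here DEN+CCl4 1 and 2 were inside the control range and DEN+CCl4 3 was 22.2 times the mean of the other 5 libraries. The fold change of 1.38 (SE 0.86, adjusted p = 0.845 in limma) was the largest positive one of the 37, and without DEN+CCl4 3 it was -0.15.

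**Figure D3:**
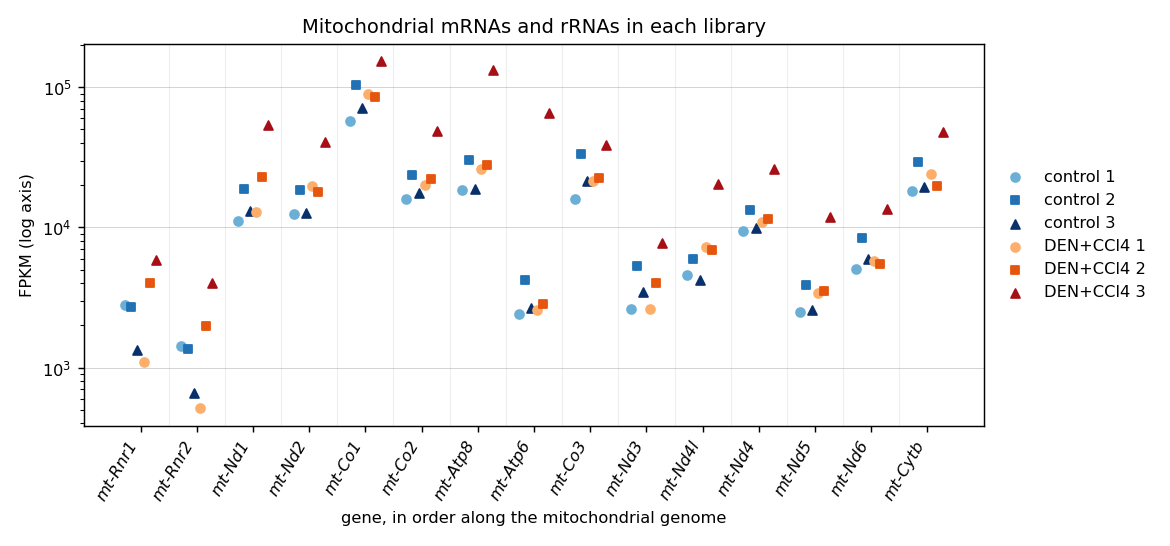
FPKM (log axis) of the 2 rRNAs and 13 mRNAs in genome order, 1 point a library, controls in blue and DEN+CCl4 in orange to red. DEN+CCl4 3 is the top point for all 15 genes, with the widest gap at mt-Atp6, 65143 against at most 4207.

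The mt-Atp6 value of DEN+CCl4 3 coincided with another split between the gene and its copy. Gm10925, with the same sequence, had 9964, 18464 and 12377 FPKM in control and 10865, 11912 and 41048 in DEN+CCl4. Like mt-Atp6, it was highest in DEN+CCl4 3, at 41048 against at most 18464 in the other libraries. The summed FPKM of both entries was therefore also highest in DEN+CCl4 3, so that library differed in the sum as well as in the split. The ratio of mt-Atp6 to Gm10925 was 0.241, 0.228, 0.215, 0.237 and 0.239 in the 3 controls and DEN+CCl4 1 and 2, and 1.59 in DEN+CCl4 3. In 5 libraries, then, the nuclear entry carried most of the FPKM of this sequence, and in DEN+CCl4 3 the mitochondrial entry did. No other pair moved by as much. The ratio was 0.994 to 1.04 for mt-Co2 and Gm28661, 1.02 to 1.04 for mt-Co3 and Gm28437, 0.956 to 1.02 for mt-Nd3 and Gm28438, and 0.957 to 1.01 for mt-Nd4l and Gm10222. For the partial copies it was 2.06 to 2.97 (mt-Co1 and Gm29216) and 1.68 to 2.46 (mt-Nd4 and Gm28439). Why a sequence was split between its entries, and why both mt-Atp6 and Gm10925 were highest in DEN+CCl4 3, was not tested.

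**Figure D4:**
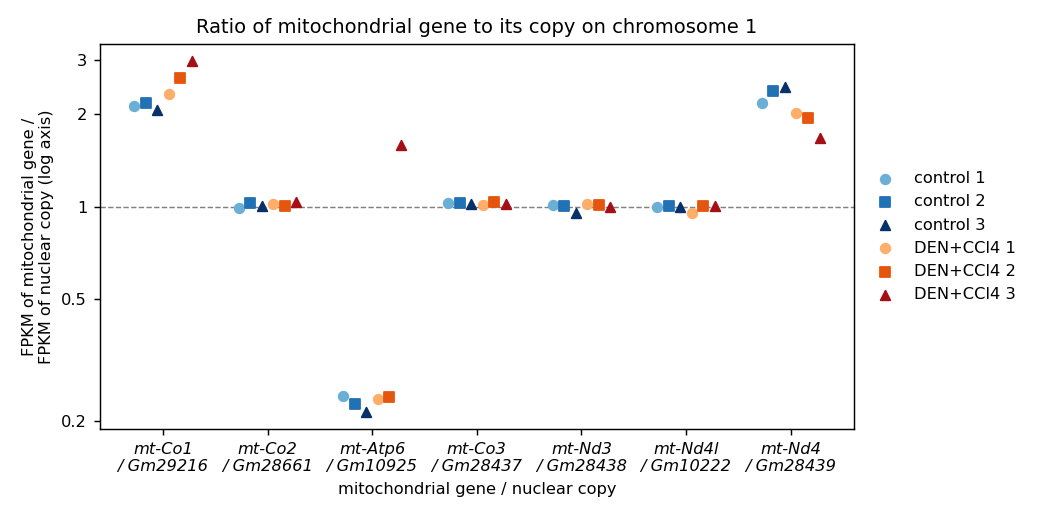
FPKM of each mitochondrial gene divided by that of its chromosome 1 copy (log axis), 1 point a library. Pairs with full-length identical or nearly identical copies sit at 1 except mt-Atp6 and Gm10925, which sit between 0.215 and 0.241 in 5 libraries and at 1.59 in DEN+CCl4 3.

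By complex, the make-up of the mitochondrial mRNA pool was alike in 5 libraries. Complex I mRNAs were 24.8% to 28.5% of mitochondrial mRNA FPKM in all 6, and the complex III mRNA 7.27% to 10.3%. Complex IV mRNAs were 50.7% to 54.4% in 5 libraries and 36.4% in DEN+CCl4 3. Complex V mRNAs were 10.6% to 12.2% in those 5 and 29.9% in DEN+CCl4 3. Within this, mt-Atp8 was 10.4%, 10.04% and 9.26% in control and 10.6%, 11.1% and 20.1% in DEN+CCl4, higher in all 3, and mt-Atp6 ranked 12 or 13 of the 13 mRNAs in 5 libraries and 3 in DEN+CCl4 3. The ratios between mRNAs given above were picked, after their values were seen, from the 78 that the 13 mRNAs allow. Of these 78 ratios, 25 had groups that did not overlap, so the separations given above were not alone. The 78 reuse the same 13 mRNAs and are not independent. The share among ratios of other genes was not computed.

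The 2 rRNAs, the small subunit 12S (mt-Rnr1, chrM:70-1024) and the large subunit 16S (mt-Rnr2, chrM:1094-2675), did not follow the mRNAs across libraries. For mt-Rnr1 FPKM was 2806, 2722 and 1331 in control and 1098, 3984 and 5895 in DEN+CCl4 (fold change 0.45, SE 0.91, adjusted p = 0.996 in limma). For mt-Rnr2 it was 1423, 1345 and 659 against 511, 1970 and 4025 (fold change 0.56, SE 0.98, adjusted p = 0.996 in limma). In both, control 3 and DEN+CCl4 1 were low and DEN+CCl4 2 and 3 high, and the controls lay between the lowest and the highest DEN+CCl4 library.

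The 2 rRNAs kept a near fixed ratio in 5 libraries, mt-Rnr1 over mt-Rnr2 being 1.97, 2.02 and 2.02 in control, 2.15 and 2.02 in DEN+CCl4 1 and 2, and 1.46 in DEN+CCl4 3. Of the 3 tRNAs next to them, mt-Tf and mt-Tv also had their highest level in DEN+CCl4 3 and their lowest in DEN+CCl4 1, whereas mt-Tl1, downstream of mt-Rnr2, was highest in DEN+CCl4 3 and lowest in control 1. Nuclear RNAs without a long poly(A) tail, picked after their values were seen, are given beside them. The annotated rRNA entry CT010467.1 had 7041, 5413 and 1666 FPKM in control and 1201, 7203 and 11287 in DEN+CCl4, in the same order of libraries as mt-Rnr1. Rpph1, the RNA of nuclear RNase P, had 120, 56.3 and 18.5 against 15.3, 88.7 and 49.6, and Rn7sk, the 7SK RNA, 138, 75.0 and 17.4 against 14.8, 63.5 and 10.6. Control 3 and DEN+CCl4 1 were thus low for these as well, except that Rn7sk was lowest in DEN+CCl4 3. The part of poly(A) selection in the rRNA levels was not tested.

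Levels of the 22 tRNA genes spanned 0.57 to 4137 FPKM, none was at 0 in any library, and 11 stayed under 100 FPKM throughout. Those encoding the glutamate, proline and leucine (UUR) tRNAs were highest, and that of the glycine tRNA, mt-Tg, had the lowest p-value of the 37 members. Their sequences are given 5′ to 3′ from the GENCODE M21 transcripts, with the anticodon in capitals. They are mt-Te (chrM:14071-14139, minus strand), mt-Tp (chrM:15356-15422, minus strand), mt-Tl1 (chrM:2676-2750, plus strand) and mt-Tg (chrM:9391-9458, plus strand).
mt-Te: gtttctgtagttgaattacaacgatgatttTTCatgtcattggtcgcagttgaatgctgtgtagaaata
mt-Tp: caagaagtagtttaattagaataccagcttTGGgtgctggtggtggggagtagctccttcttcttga
mt-Tl1: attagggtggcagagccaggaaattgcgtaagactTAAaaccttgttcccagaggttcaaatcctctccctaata
mt-Tg: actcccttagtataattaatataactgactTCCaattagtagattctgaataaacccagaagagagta
The first adjoins mt-Nd6, the third lies between mt-Rnr2 and mt-Nd1, and the last between mt-Co3 and mt-Nd3.

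The highest tRNA gene, mt-Te, had 2084, 3275 and 2353 FPKM in control and 2505, 1806 and 4137 in DEN+CCl4, with DEN+CCl4 2 below every control (fold change 0.07). The next, mt-Tp, had 961, 1916 and 1551 against 1246, 1531 and 2427 (fold change 0.23). In neither did the groups separate. The level of mt-Tl1 was 552, 895 and 742 FPKM in control and 627, 747 and 2925 in DEN+CCl4, DEN+CCl4 3 being 3.27 times the highest other library (fold change 0.63, SE 1.00, adjusted p = 0.996 in limma).

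After these came mt-Tm, the methionine tRNA used both to start and to extend proteins, with 430, 382 and 241 FPKM in control and 698, 415 and 753 in DEN+CCl4. DEN+CCl4 2 lay between 2 of the controls. The asparagine, alanine, cysteine and tyrosine tRNA genes lie side by side on the minus strand between mt-Tw and mt-Co1. In this cluster mt-Tn ran from 172 to 329 FPKM in control and from 283 to 909 in DEN+CCl4, mt-Ta from 120 to 226 and from 199.98 to 606, and mt-Tc from 119 to 247 and from 211 to 509. All 3 were highest in DEN+CCl4 3 and lowest in control 1. Their neighbour mt-Ty had 107, 206 and 170 FPKM against 208, 213 and 282, with every DEN+CCl4 library above every control, DEN+CCl4 1 only just (fold change 0.58, SE 1.04, adjusted p = 0.996 in limma).

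Of the 8 highest tRNA genes, 6 lay on the minus strand (mt-Te, mt-Tp, mt-Tn, mt-Ta, mt-Tc and mt-Ty). Per library, the median over the 8 minus-strand tRNAs was 119 to 557 FPKM and over the 14 plus-strand tRNAs 14.1 to 38.7 FPKM, the former higher in all 6 libraries. The exception among the minus-strand tRNAs was mt-Ts1, whose mean of 3.06 FPKM was the lowest of the 22. The 14 tRNAs below the 8 highest had means of 3.06 to 190 FPKM.

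**Figure D5:**
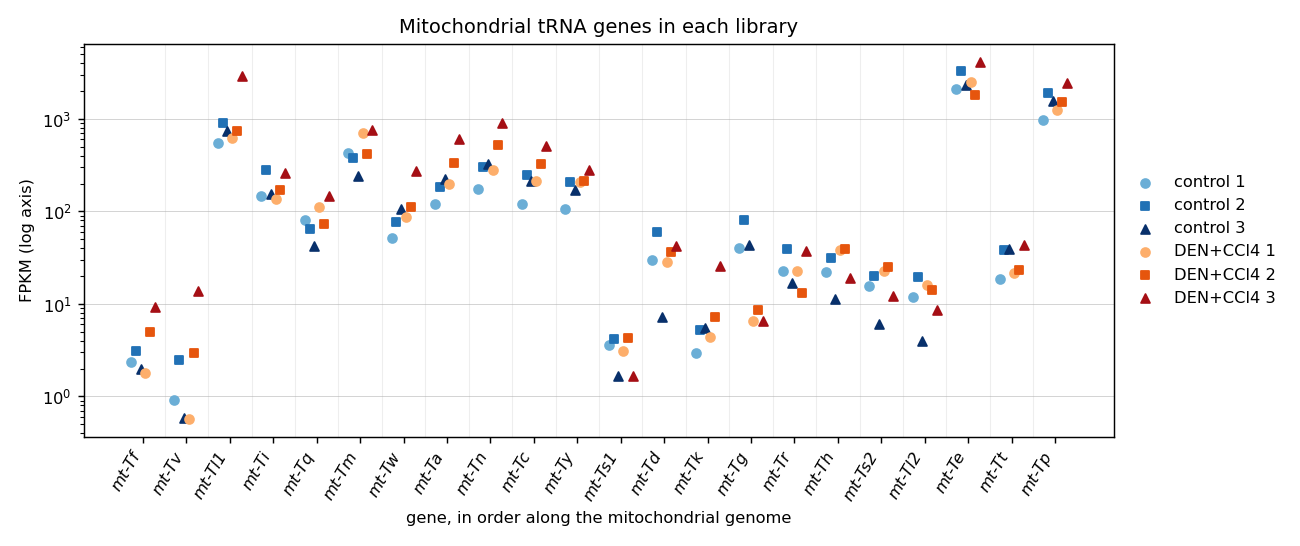
FPKM (log axis) of the 22 tRNA genes in genome order, 1 point a library, controls in blue and DEN+CCl4 in orange to red. At mt-Tg the 3 DEN+CCl4 points, 6.46 to 8.57, lie below the 3 controls, 40.1 to 80.5. DEN+CCl4 3 is the top point for 14 of the 22 genes, and mt-Th, mt-Ts2 and mt-Tl2 are among those where it is not.

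The glycine tRNA gene mt-Tg had 40.1, 80.5 and 43.8 FPKM in control and 6.46, 8.57 and 6.50 in DEN+CCl4. All 3 DEN+CCl4 libraries were below all 3 controls, and in FPKM as deposited they were close to each other. As a share of mitochondrial mRNA FPKM they were not. There mt-Tg was 0.00263% and 0.00339% in DEN+CCl4 1 and 2 and 0.000984% in DEN+CCl4 3. The mean FPKM was 54.8 ± 22.3 (SD, n = 3) against 7.18 ± 1.21 (SD, n = 3), a fold change of -2.71 (SE 0.84). It missed the threshold, with an adjusted p of 0.0786 in limma (Benjamini-Hochberg, 8528 genes; unadjusted p = 0.00144). A two-sided exact permutation test over the 6 libraries gave p = 0.1, the smallest that 3 against 3 allows. The gene falls outside the rule by which genes were picked for naming and was singled out after its values were seen.

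The difference in mt-Tg had the same sign in all 19 alternative fits, from -3.28 to -2.05. Its adjusted p there ran from 0.000323 to 0.875 and was under 0.05 in 2 of them. With libraries weighted by their noise mt-Tg was the 1 member called lower (1.57% of all tested genes were) and mt-Th and mt-Ts2 were the 2 called higher (3.37%). With only genes that averaged 5 FPKM or more it was the 1 called lower (adjusted p = 0.0497 in limma, 1.6% of tested genes) and 0 were called higher (0.422%). Ratios to the direct neighbours of mt-Tg on the genome reuse the same mt-Tg values and are not independent of this difference. Both neighbours, mt-Co3 and mt-Nd3, have a copy on chromosome 1, so the ratios also hold what was assigned to the copies. In percent of mt-Co3 FPKM, mt-Tg was 0.253, 0.240 and 0.203 in control and 0.0299, 0.0378 and 0.0168 in DEN+CCl4. In percent of mt-Nd3 FPKM it was 1.54, 1.51 and 1.26 against 0.248, 0.212 and 0.0839. The next tRNA downstream, mt-Tr, was 0.861, 0.733 and 0.487% of mt-Nd3 in control and 0.866, 0.323 and 0.477% in DEN+CCl4, with overlap. By position the stretch on chromosome 1 covers mt-Tg, where the annotation names no copy of it. The 0% of its 31-base words found in annotated nuclear transcripts therefore cannot show whether its fragments fit that stretch too.

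As deposited, mt-Nd4l and mt-Ty (2 of 37) were higher in all 3 DEN+CCl4 libraries than in every control, where 3.01% of all tested genes were, and mt-Tg (1 of 37) was lower in all 3, where 5.35% were. The names changed with scale except for mt-Tg, which was lower in all 3 under each of the 4 scalings tried. With median-ratio scaling mt-Th and mt-Ts2 were higher (7.63% of all genes) and mt-Tg lower (6.52%). With the nuclear total mt-Tq, mt-Tm, mt-Nd4l and mt-Th were higher (7.74%) and mt-Tg lower (2.83%). Within the mitochondrial pool mt-Atp8 and mt-Nd4l were higher (1.02%), and mt-Co3, mt-Nd6, mt-Ti, mt-Tg, mt-Te and mt-Tt lower (5.63%).

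DEN+CCl4 3 was the highest library for 13 of 13 mRNAs, 2 of 2 rRNAs and 14 of 22 tRNAs, beside 1.49% of other tested genes. It was 1.68 (mt-Co3) to 22.2 (mt-Atp6) times the mean of the other 5 for the mRNAs, with a median of 2.45, 2.47 and 3.41 times for mt-Rnr1 and mt-Rnr2, and 0.181 (mt-Tg) to 9.27 (mt-Tv) times for the tRNAs, with a median of 1.70. For mt-Tv, the valine tRNA between the rRNAs, FPKM was 0.92, 2.45 and 0.59 in control and 0.57, 2.95 and 13.9 in DEN+CCl4 (fold change 1.04, unadjusted p = 0.0404, adjusted p = 0.59995 in limma), and DEN+CCl4 3 alone was above the others by 4.70 times. The histidine, serine (AGY) and leucine (CUN) tRNA genes, mt-Th, mt-Ts2 and mt-Tl2, lie side by side between mt-Nd4 and mt-Nd5. All 3 were lowest in control 3, at 11.3, 5.99 and 3.97 FPKM, and in DEN+CCl4 3 they were 0.658 to 0.687 times the mean of the other libraries, while the mRNAs on both sides were highest there. Elsewhere on the genome mt-Ts1 was also lowest in control 3, at 1.66 FPKM, with 1.67 in DEN+CCl4 3, which was 0.50 times the mean of the other libraries.

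The nuclear genes of mitochondrial gene expression, were read from a list of 95 genes in 8 roles. All 95 were in the table and 64 passed the filter on low values. None of the 64 passed the threshold in either direction in limma, beside the 0.833% and 0.645% of all tested genes. At an unadjusted p under 0.05 there were 0 higher and 1 lower, beside 216 and 432 of the 8528 tested genes. The median fold change was -0.30, with 59 of 64 negative, against -0.27 for all tested genes, and after median-ratio scaling -0.03 against 0.01. All 64 were lowest in DEN+CCl4 3, as were 83.0% of other nuclear genes. As deposited, 1 of the 64 was lower in all 3 DEN+CCl4 libraries than in every control, beside 5.35% of all tested genes. None was higher in all 3, beside 3.01%.

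By role, the mitochondrial RNA polymerase Polrmt was at 3.99, 6.91 and 6.17 FPKM in control and 7.02, 7.72 and 1.18 in DEN+CCl4, and the transcription factor Tfb2m, which melts the promoter for it, at 2.91 ± 0.295 against 2.27 ± 1.05 (SD, n = 3). In DEN+CCl4 1 and 2 Polrmt was above every control. Of RNA processing, Hsd17b10, a subunit of mitochondrial RNase P, which cuts tRNA 5′ ends, was at 123, 96.3 and 184 FPKM in control and 107, 39.1 and 5.82 in DEN+CCl4. Its fold change of -2.08 (SE 1.00, adjusted p = 0.578 in limma) was the most negative of the 64. The groups overlapped through DEN+CCl4 1.

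The other named genes of the list overlapped between groups too. They were Atad3a and Endog (mitochondrial DNA maintenance), Fastk (RNA processing), Rexo2 and Supv3l1 (RNA decay), Pus1 and Mrm3 (modification of tRNA and rRNA), Aars2 and Vars2 (alanine and valine tRNA synthetases), Tufm and Mtif2 (translation factors), and Esrra and Yy1 (transcription factors of nuclear mitochondrial genes). Their fold changes ran from -1.05 (Atad3a) to -0.11 (Pus1), with adjusted p-values of 0.953 to 0.996 in limma, and each was lowest in DEN+CCl4 3.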

How the data were processed

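Gene-level FPKM values were used as the authors deposited them, per the file headers, to 2 decimals. HISAT, StringTie and GRCm38 are named in the submitters' processing notes; versions, annotation release, strand setting and the handling of fragments with several matches are not stated there. Total RNA with an integrity number above 7 was poly(A)-selected, per the labels' protocols. The table holds no counts, so depth is unknown. The members and the lists of nuclear genes and markers were chosen with earlier results of these data known.

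Differences of log2(FPKM + 1) were tested two-sided with limma 3.58.1 in R 4.3.3, its variance prior following intensity, for the 8528 genes whose 6-library mean reached 1 FPKM, with Benjamini-Hochberg adjustment over all of them and a threshold of 0.05. The fit was tested on simulated data with independent noise of capped spread. Such data hold no library that stands apart, as DEN+CCl4 3 did. The pseudocount of 1 understates changes of low genes. Shares, ratios and figures were made in Python 3.11.15 (numpy 2.4.6, pandas 2.3.3, matplotlib 3.10.9). Identifiers were matched to GENCODE M21 (25051 of 25102 found), which gave lengths, coordinates and the 31-base words. All mRNAs and rRNAs, the 8 tRNAs highest on average and any gene past the threshold were named, with the 2 highest of each nuclear role and, of the copies, the 4 highest; the other 3 copies and the other tRNAs named were chosen after their values were seen. The 7 copies are the nuclear genes with at least 50% of their words in the mitochondrial transcripts. Alternatives changed pseudocount, filter, scaling, weights, replicate block or left out 1 library.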

Additional observations from a re-analysis of the deposited data

How the results depend on the processing

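In all 19 alternative fits, no nuclear gene of mitochondrial gene expression passed the threshold. Mitochondrial genes passed in 2 of them: with array weights 2 were higher (mt-Th and mt-Ts2) and 1 lower (mt-Tg), and with a filter of 5 FPKM 1 was lower (mt-Tg). The weights were 11.2 for control 3 and 3.58 for DEN+CCl4 1, and 0.0621 for DEN+CCl4 3, so that fit rests on few libraries. The numbers of all genes called higher and lower, 71 and 55 as deposited, were 6 and 3 with a pseudocount of 0.1, 4 and 0 with 0.01, 0 and 0 with no filter, 14 and 53 with a filter of 5 FPKM, 37 and 29 in TPM, 10 and 13 with the mitochondrial total, 287 and 134 with array weights, and 0 and 0 with median-ratio scaling, the nuclear total, quantile normalization or no trend. Leaving out 1 library gave 0 to 120 higher and 0 to 272 lower, with 0 and 0 without DEN+CCl4 3 (536 and 149 at an unadjusted p under 0.05). The mitochondrial share difference, 13.5 percentage points, was 13.8 weighted by length, 15.8 with the copies, 13.1 for mRNAs alone and 4.99 to 18.6 with 1 library left out. Depth is unknown, and with 3 libraries a group an exact permutation test cannot go below p = 0.1.

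With the replicate number as a block, 62 genes were higher and 32 lower, and the mitochondrial calls stayed at 0. Libraries of equal number had correlated deviations of 0.07, 0.42 and -0.15 and not every library correlated best with its own number, so the numbers were not taken as pairs.

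The sign of the fold change turned for these genes, none of them past the threshold in any of these fits. Scaled to the mitochondrial total it was -0.20 for mt-Rnr1, -0.0839 for mt-Rnr2, -0.16 for mt-Co1, -0.0855 for mt-Co2, -0.40 for mt-Co3, -0.39 for mt-Nd3, -0.18 for mt-Nd4, -0.39 for mt-Nd6, -0.27 for mt-Cytb, -0.57 for mt-Te, -0.41 for mt-Tp, -0.0118 for mt-Tl1 and -0.0665 for mt-Ty. With the same scaling and without DEN+CCl4 3, chosen after seeing the data (2 genes higher and 1 lower over the table), it was -0.23 for mt-Rnr1, -0.28 for mt-Rnr2, -0.0213 for mt-Co2, -0.32 for mt-Atp6, -0.20 for mt-Co3, -0.34 for mt-Nd3, -0.12 for mt-Nd4, -0.34 for mt-Nd6, -0.18 for mt-Cytb, -0.42 for mt-Te, -0.22 for mt-Tp and -0.24 for mt-Tl1. With array weights it was -0.22 for mt-Rnr1, -0.29 for mt-Rnr2, -0.31 for mt-Nd3, -0.0369 for mt-Nd6, -0.21 for mt-Tp, -0.15 for mt-Tl1, 0.0602 for Fastk, 0.20 for Polrmt, 0.16 for Pus1, 0.11 for Supv3l1, 0.11 for Mrm3, 0.0392 for Mtif2 and 0.0405 for Yy1. In TPM it was -0.10 for mt-Te. Quantile normalization gave -0.26 for mt-Co3, -0.0884 for mt-Cytb, 0.44 for Fastk, 0.15 for Pus1, 0.11 for Supv3l1, 0.0771 for Mtif2 and 0.0788 for Yy1. For mt-Co1 it left no difference between the groups (-0.00), which is not a turn of sign. Median-ratio scaling gave 0.29 for Fastk, 0.0101 for Polrmt, 0.17 for Pus1, 0.18 for Supv3l1, 0.16 for Mtif2 and 0.15 for Yy1. The nuclear total gave 0.30 for Fastk, 0.0447 for Polrmt, 0.22 for Pus1, 0.18 for Supv3l1, 0.0072 for Mrm3, 0.17 for Mtif2, 0.17 for Yy1 and 0.0064 for Tfb2m.

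With 1 library left out in turn, the fold change ran from -0.0507 to 1.16 for mt-Rnr1, -0.11 to 1.38 for mt-Rnr2, -0.15 to 2.19 for mt-Atp6, -0.0273 to 0.53 for mt-Co3, -0.17 to 0.62 for mt-Nd3, -0.16 to 0.49 for mt-Nd6, -0.0026 to 0.64 for mt-Cytb, -0.25 to 0.35 for mt-Te, -0.0486 to 0.45 for mt-Tp and -0.0647 to 1.05 for mt-Tl1. For the nuclear genes it ran from -0.91 to 0.11 for Esrra, -0.48 to 0.25 for Fastk, -0.73 to 0.0239 for Aars2, -0.65 to 0.35 for Polrmt, -0.79 to 0.59 for Pus1, -0.35 to 0.0830 for Supv3l1, -0.57 to 0.24 for Mrm3, -0.44 to 0.17 for Mtif2 and -0.39 to 0.23 for Yy1. The cause was not tested.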
